A study of Mus musculus with 4 samples.

Results

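The genes described here are the Rab GTPases and the subunits of the exocyst in mouse P14 CD8+ T cells that did or did not overexpress Hic1. Members were taken by gene symbol, as every entry of the count table named Rab plus a number and at most 1 letter or named Exoc1 to Exoc8, which gave 59 Rab genes and 8 exocyst genes, 67 of 55401 genes. P14 cells carry a transgenic T cell receptor for a peptide of lymphocytic choriomeningitis virus (LCMV). They had been transduced with a pMIA vector that was either empty or encoded Hic1, a transcriptional repressor with zinc fingers. All cells came from spleens of mice infected with the Armstrong strain, in both groups alike. The sample labels place the collection at day 32 after infection and the series text at day 7. Each group had 2 libraries, made by Smart-seq2 from lysate of resorted cells. The comparison is therefore between an empty vector and forced expression of Hic1 from a vector, and the labels name no mouse strain, age or number of animals.

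Rab proteins are small GTPases that mark membranes. When loaded with GTP, a Rab recruits motors, tethers and fusion factors to the surface of an organelle or vesicle, and each Rab serves its own set of compartments. The exocyst is a tethering complex that holds secretory vesicles at the plasma membrane before fusion, and it takes signals from Rab and Ral GTPases. In cytotoxic T cells this machinery moves T cell receptors back to the surface and brings lytic granules to the immunological synapse, where Rab27a acts in granule docking.

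Libraries held 4017346 and 3941364 gene counts with the empty vector and 7501285 and 8839317 with the Hic1 vector, so the deeper libraries were those of one group. Hic1 itself had 3 and 5 counts with the empty vector against 314 and 161 with the Hic1 vector. All 7 CD8 T cell markers examined were present in every library, with a summed level of 5074 to 6309 CPM (counts scaled to a common library size). Of the CD4 T cell markers, Cd4 had at most 5 counts and Foxp3 at most 2, while Cd40lg was at 17 and 9.74 CPM against 32.5 and 11.5 CPM. Of the NK cell markers, Klrb1c was at 29.4 and 43.7 CPM against 58.6 and 70.8 CPM. Eomes was at 20.4 and 17.2 CPM against 6.05 and 11.7 CPM, and Ncr1 had at most 2 counts. Of the B cell markers, Ighm stood at 61.4 and 84.4 CPM with the empty vector and at 237.9 and 197.1 CPM with the Hic1 vector. Cd79b was at 16.3 and 3.25 CPM against 38 and 13.3 CPM, Cd74 had 19 to 31 counts, Cd79a at most 17 and Ms4a1 at most 2 in any library. The part of RNA from B cells or other cell types in the results below was not tested. Of the 7 myeloid markers, Cst3 was at 129.6 and 130.2 CPM against 117.3 and 159 CPM. Itgam was at 33.5 and 28.2 CPM against 15.5 and 17.8 CPM, and Cd68 at 12.6 and 26.2 CPM against 27.6 and 26.9 CPM. Adgre1 had 6 and 10 counts against 0 and 0. Csf1r, Fcer1g and Lyz2 had at most 37 counts in any library. The 7 genes summed to 185.7 and 195.4 CPM against 165.3 and 213.3 CPM, most of it Cst3. In both groups replicate 1 had Xist RNA and replicate 2 had Y-linked RNA, so the replicates of a group differed in sex. Whether they came from single or pooled animals is not in the labels, and the p-values measure the spread between these libraries only.

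Exoc5 and Rab6a were the only members that passed the test, and both fell to about the same degree with the Hic1 vector. Exoc5, the exocyst subunit that links Exoc6 to the rest of the complex, fell 3.06-fold. Rab6a, a Golgi Rab of retrograde transport and of carriers that leave the Golgi, fell 3.02-fold. Of the 67 members, 47 passed the filter on low counts and were tested, 39 Rab genes and all 8 exocyst genes. In the quasi-likelihood test of edgeR, with Benjamini-Hochberg adjustment over 11676 genes, 2 of the 47 passed an adjusted p of 0.05, both lower, where 1.82% of all genes tested were called (0.719% higher and 1.10% lower). Scaling by library size only gave 70 higher and 251 lower calls over the whole table, against 84 and 129, and 3 members were called, with Rab28 added (adjusted p = 0.0448 by edgeR's quasi-likelihood test). A fit that also holds the replicate number, which follows sex in both groups, called 5 members, with Rab28, Rab8a and Rab1b added, where it called 6.80% of all genes. The median log2 fold change was 0.09 over the Rab genes, -0.09 over the exocyst genes and 0.01 over all genes tested. At an unadjusted p below 0.05 there were 15 members (31.9%), against 19.1% of all genes. Of these, 8 were higher (17.0%, against 9.41%) and 7 lower (14.9%, against 9.70%). CPM did not overlap between the groups in 12 members that were higher and 12 that were lower, 25.5% each, where 26.5% and 24.9% of all genes tested showed this. The shares without overlap lie near the background, and those at an unadjusted p lie above it.

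**Figure D1:**
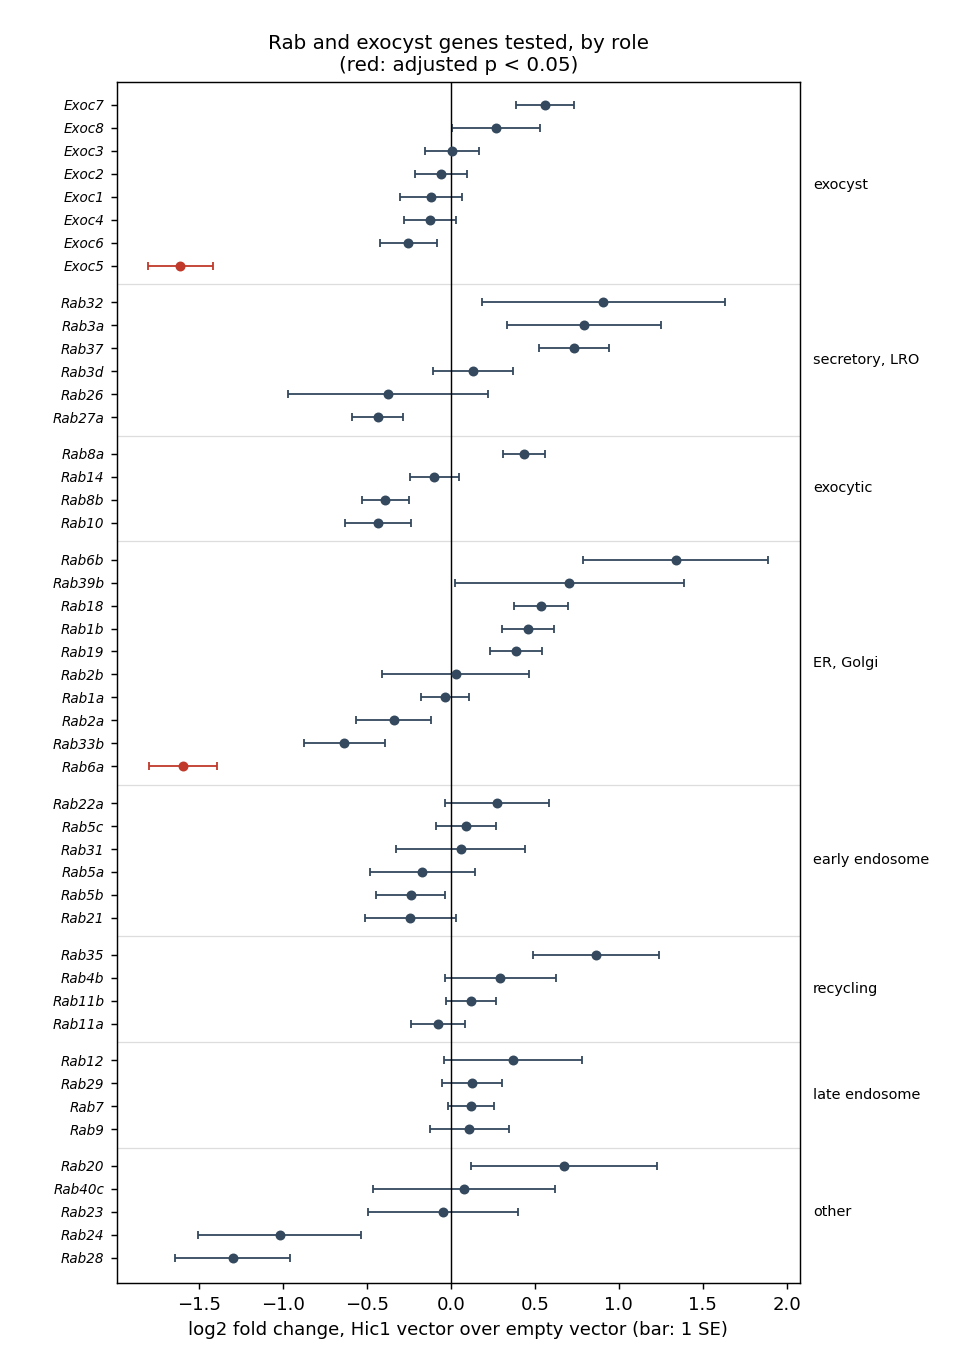
Log2 fold change of the 47 tested genes, Hic1 vector over empty vector, grouped by role, with bars of 1 standard error (SE) from 2 libraries per group. Exoc5 at -1.61 and Rab6a at -1.60 are in red and lie left of every other gene, and Rab28 at -1.30 did not pass.

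Exoc5 (ENSMUSG00000061244.14, chromosome 14, positions 49004090 to 49066653, minus strand, mm10) encodes the counterpart of yeast Sec10. With the empty vector it had 414 and 331 counts, and with the Hic1 vector 204 and 270, although the latter libraries were sequenced more deeply. As CPM on scaled library sizes, these counts were 100.5 and 82.7 against 28.7 and 30.8. Both Hic1 vector libraries lay far below both empty vector libraries. The mean fell from 91.6 ± 12.6 to 29.7 ± 1.45 CPM (SD, n = 2 in each group). The log2 fold change was -1.61 ± 0.193 (SE), and the adjusted p from edgeR's quasi-likelihood test was 0.00706. When empty vector replicate 1 was left out, the log2 fold change was -1.46 and the gene no longer passed (adjusted p = 0.0592). In the other 16 of 17 alternatives it was called.

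Rab6a (ENSMUSG00000030704.14, chromosome 7, positions 100607410 to 100641268, plus strand) had 315 and 336 counts with the empty vector and 207 counts in each Hic1 vector library. That is 76.5 and 83.9 CPM against 29.1 and 23.6 CPM. The groups were again far apart, with no overlap. The mean went from 80.2 ± 5.29 to 26.4 ± 3.93 CPM (SD, n = 2), a log2 fold change of -1.60 ± 0.203 (SE) with an adjusted p of 0.00706 by the same edgeR test. Rab6a was called in 17 of 17 alternatives, at adjusted p-values from 6.96e-10 to 0.0464.

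The stretches just upstream of these 2 genes are shown because these were the members that fell and Hic1 binds DNA. They run 5′ to 3′ on the strand of the gene and come from RefSeq promoter windows on GRCm38.p6. Capitals mark TGCCC, the core of the known HIC1 response element.

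Exoc5, chr14:49066668-49066917, minus strand: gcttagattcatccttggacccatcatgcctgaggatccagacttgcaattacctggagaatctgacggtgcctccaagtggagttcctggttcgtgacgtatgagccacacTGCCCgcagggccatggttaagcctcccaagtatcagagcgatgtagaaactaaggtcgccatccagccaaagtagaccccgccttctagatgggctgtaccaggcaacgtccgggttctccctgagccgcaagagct

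Rab6a, chr7:100607336-100607409, plus strand: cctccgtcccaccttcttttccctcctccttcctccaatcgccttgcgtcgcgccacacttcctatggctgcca

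For Rab6a only the 74 bases before the most upstream annotated transcript are printed, and its single TGCCC lies in the other 176 bases of the 250-base window. TGCCC, searched on both strands, occurred in 47.7% of all 32851 windows and in 50.3% of the 10712 windows of tested genes. Among tested members it was in 27 of 51 windows (52.9%, from 43 genes), so its presence is common. The fuller forms GGGCACCC and GGGCAACC, also on both strands, were in neither of these 2 windows. They were found in 2 and 0 of the 51 member windows, in 0.971% and 0.685% of all windows and in 1.29% and 0.831% of the windows of tested genes. These are matches of letters, not measured binding.

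Of the 8 exocyst subunits 1 fell, 0 rose and 7 did not pass. In the complex, Exoc1 to Exoc4 form one subcomplex and Exoc5 to Exoc8 the other. Exoc1, which anchors the complex at the membrane, was at 65.3 and 59 CPM with the empty vector and 55.6 and 58.8 CPM with the Hic1 vector. Exoc2, a Ral-binding subunit, was at 119.9 and 138.4 CPM against 127.3 and 120.7 CPM. The log2 fold changes of these 2 subunits were smaller than their SE, at -0.12 ± 0.182 and -0.06 ± 0.153. For Exoc1 both Hic1 vector libraries were the lower ones, by as little as 58.8 against 59 CPM. Exoc3, a core subunit, was at 92.7 and 93.9 CPM against 101 and 86.6 CPM, a log2 fold change of 0.01 ± 0.161. The sign of Exoc1, Exoc2 and Exoc3 changed with the scaling, filter, GC correction or library left out. Exoc4, of the same subcomplex, was at 98.1 and 104.9 CPM against 88.3 and 97.9 CPM, a log2 fold change of -0.12 ± 0.156. Its Hic1 vector libraries were both the lower ones, by as little as 97.9 against 98.1 CPM.

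In the other subcomplex, Exoc6, the subunit that binds Rab11, was at 74.5 and 85.2 CPM with the empty vector and 66 and 67.8 CPM with the Hic1 vector. Its log2 fold change was -0.25 ± 0.17 (SE), and both Hic1 vector libraries were the lower ones. Exoc7, which binds membrane lipids, was at 53.2 and 59.7 CPM against 84.3 and 82.5 CPM. That is the opposite side from Exoc5, with a log2 fold change of 0.56 ± 0.173, and it did not pass (adjusted p = 0.112 by edgeR's quasi-likelihood test). Exoc8, the other Ral-binding subunit, was at 21.1 and 18.5 CPM against 25.2 and 22.7 CPM, a log2 fold change of 0.27 ± 0.262. Both Hic1 vector libraries were the higher ones.

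The composition of the exocyst transcripts can be read within each library, where no scaling between libraries enters. Such shares are not corrected for GC content, which among the 8 subunits was lowest in Exoc5 (38.1%) and highest in Exoc7 (56.1%). Exoc5 made up 16.1% (95% Wilson interval 14.7 to 17.5) and 12.9% (11.6 to 14.2) of the exocyst counts with the empty vector. With the Hic1 vector it made up 4.98% (4.36 to 5.69) and 5.42% (4.82 to 6.08). Exoc7 made up 8.50% and 9.30% against 14.6% and 14.5%. The remaining 7 subunits without Exoc5 summed to 524.8 and 559.6 CPM against 547.7 and 536.9 CPM, ranges that overlap. These intervals cover counting error only, since PCR reads lacking molecular identifiers cannot be counted as molecules.

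**Figure D2:**
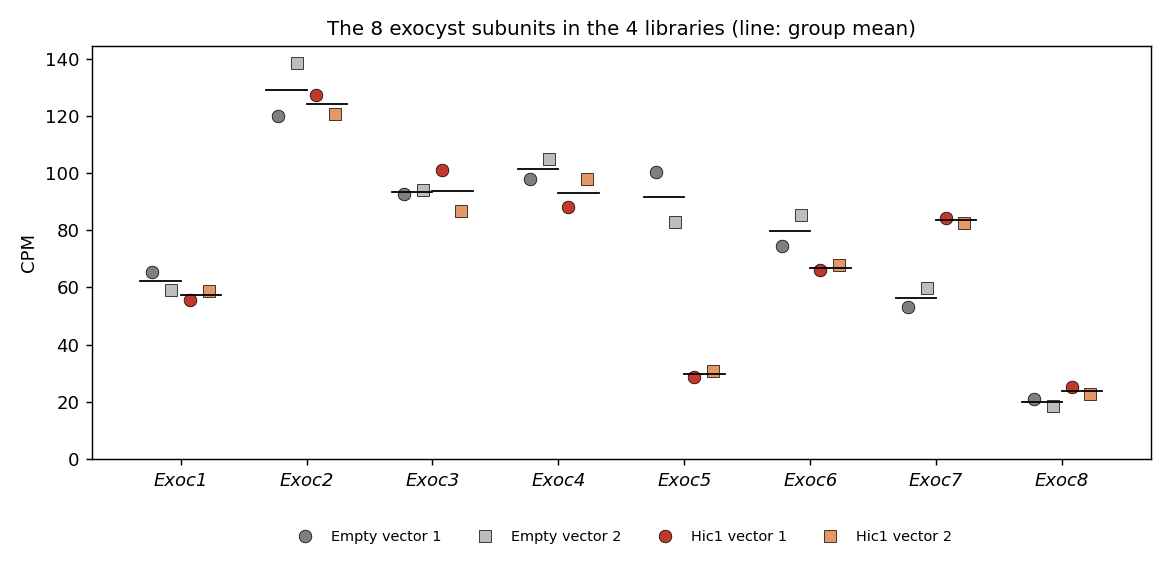
CPM of the 8 exocyst subunits in each of the 4 libraries, with lines at group means (n = 2). Exoc5 drops from 91.6 to 29.7 CPM on average, Exoc7 lies higher in both Hic1 vector libraries without passing the test, and the other subunits stay close.

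Among the 10 ER and Golgi Rabs tested, Rab6a fell, 0 rose and 9 did not pass. Rab6b, the paralog of Rab6a known mainly from neurons, had 7 and 5 counts with the empty vector and 32 and 35 with the Hic1 vector. Its levels of 1.70 and 1.25 CPM against 4.51 and 3.99 CPM did not overlap, but with so few counts the log2 fold change of 1.34 ± 0.554 did not pass (adjusted p = 0.214 by edgeR's quasi-likelihood test). Rab1b, which acts in transport from the ER to the Golgi, was at 187.4 and 229.6 CPM against 266.8 and 306.5 CPM. Its log2 fold change was 0.46 ± 0.153, while its paralog Rab1a was at 158.7 and 169.6 CPM against 157.3 and 163.2 CPM.

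Rab18, found on the ER and on lipid droplets, was at 109.5 and 94.9 CPM with the empty vector and 134.3 and 162.4 CPM with the Hic1 vector. Rab33b, a Golgi Rab that also acts in autophagy, was at 43.9 and 38 CPM against 30.3 and 22.3 CPM. Rab19 was at 79.9 and 80.2 CPM against 101.9 and 107.6 CPM. None of these 3 overlapped between groups, and none passed, with log2 fold changes of 0.54 ± 0.163, -0.64 ± 0.241 and 0.39 ± 0.156 (SE) and adjusted p-values of 0.107, 0.181 and 0.205 by edgeR's quasi-likelihood test.

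The 4 tested Rabs of exocytic and polarised transport gave no call, with a median log2 fold change of -0.24, and the 2 Rab8 paralogs lay on opposite sides. Rab8a, which carries cargo from the trans-Golgi network to the plasma membrane, was at 442.7 and 491.7 CPM against 634.1 and 632.5 CPM. Rab8b, its close relative, was at 275.3 and 257.3 CPM against 193.6 and 212.5 CPM. Both pairs of libraries were clearly apart, but the differences were small, at 0.44 ± 0.125 for Rab8a and -0.39 ± 0.139 for Rab8b on the log2 scale. Neither passed (adjusted p = 0.092 and 0.159 by edgeR's quasi-likelihood test). Rab10 and Rab14 had log2 fold changes of -0.44 and -0.10.

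**Figure D3:**
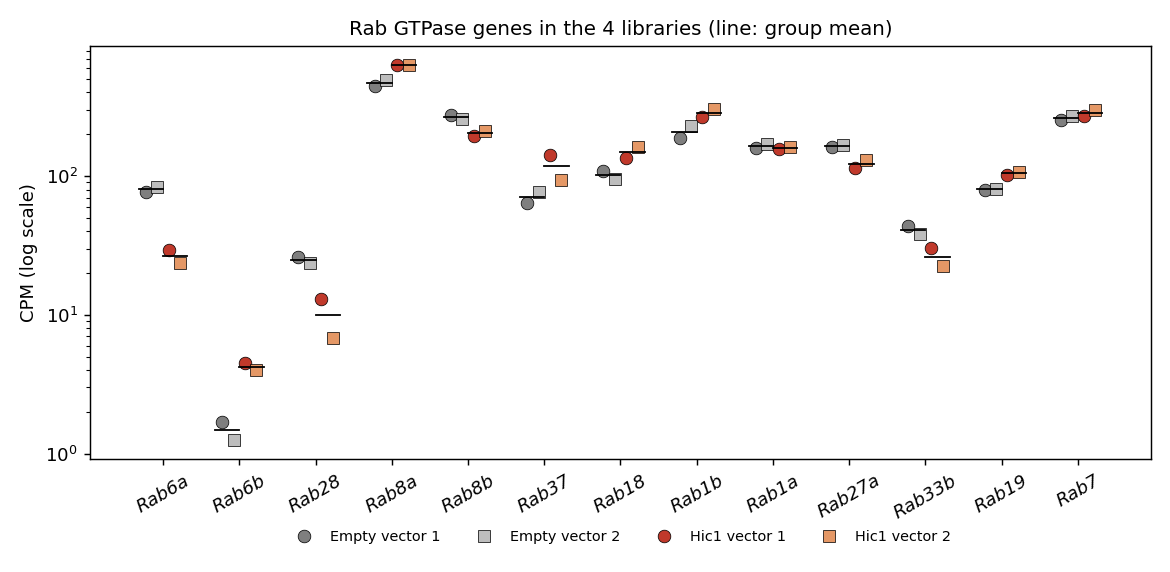
CPM of 13 Rab genes in each library on a log axis, with lines at group means (n = 2). Rab6a falls from 80.2 to 26.4 CPM, Rab8a is higher and Rab8b lower in both Hic1 vector libraries, and Rab1a and Rab7 stay level.

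Secretory and lysosome-related organelle Rabs gave no call among 6 tested, with a median log2 fold change of 0.43. Of these, 4 were above 0 and 2 below, and with GC correction the median was 0.31. The median rests in part on genes of few counts. Rab3a had 14 and 17 counts against 38 and 73, Rab32 1 and 9 against 16 and 26, and Rab26 8 and 13 against 11 and 20. Rab27a, which docks lytic granules in cytotoxic T cells, was at 162.1 and 168.6 CPM with the empty vector and 114.6 and 129.6 CPM with the Hic1 vector. The Hic1 vector libraries were both lower, a log2 fold change of -0.44 ± 0.15 (SE), and the gene did not pass (adjusted p = 0.147 by edgeR's quasi-likelihood test, and not called in any of 17 alternatives). Its paralog Rab27b was too low to test, with 4 and 7 counts against 0 and 1. Rab37, a Rab of secretory granules, was at 64.3 and 77.2 CPM against 141.9 and 94 CPM, a log2 fold change of 0.73 ± 0.209 (adjusted p = 0.0992 by the same test). Without Hic1 vector replicate 2 it was 1.01 and passed (adjusted p = 0.0188), and the 2 Hic1 vector libraries differ much from each other.

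The endosomal Rabs gave no call. Among 6 early endosome Rabs, which act in fusion of incoming vesicles, log2 fold changes ran from -0.24 to 0.28 with a median of -0.06. Among 4 recycling Rabs, which return receptors to the surface, they ran from -0.08 for Rab11a to 0.87 for Rab35, and among 4 late endosome and lysosome Rabs from 0.11 to 0.37. Rab7, which governs fusion of late endosomes with lysosomes, was at 252.2 and 270.8 CPM against 271.3 and 297.9 CPM, a log2 fold change of 0.12 ± 0.136. Rab9, an X-linked gene of transport from late endosomes to the Golgi, was at 26 and 28 CPM against 27.6 and 30.7 CPM.

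Outside these roles 5 Rabs were tested and none passed. Rab28, known from inherited retinal disease, was at 26.2 and 23.5 CPM against 13.1 and 6.84 CPM. The groups did not overlap, and the log2 fold change was -1.30 ± 0.343 (SE), short of the threshold (adjusted p = 0.0746 by edgeR's quasi-likelihood test). DESeq2 called it (adjusted p = 0.0334), and it was also called without Hic1 vector replicate 1, at -1.80 (adjusted p = 0.0145). In all it was called in 5 of 17 alternatives, the others being library sizes alone, no filter and the replicate number as a term. Rab24 was at 7.28 and 5.25 CPM against 3.24 and 2.62 CPM, but 1258 of its 2015 annotated exon bases overlap Prelid1 on the other strand, so its value is uncertain.

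Shares within pairs of paralogs need no scaling between libraries, but they are not corrected for GC content. They were computed for 9 pairs, chosen after the values were seen, and 5 are drawn in the figure. Rab6a held 97.8% and 98.5% of the counts of Rab6a and Rab6b together with the empty vector, against 86.6% and 85.5% with the Hic1 vector. Rab8a held 61.7% and 65.6% of the Rab8 counts against 76.6% and 74.9%. Rab1a held 45.9% and 42.5% of the counts of Rab1a and Rab1b against 37.1% and 34.7%. In these 3 pairs the groups did not overlap. In each, the paralog with the larger share under the Hic1 vector than under the empty vector was the one of higher GC content. GC content was 51.4% for Rab6b and 44.6% for Rab6a, 49.4% for Rab8a and 40.6% for Rab8b, and 58.9% for Rab1b and 42% for Rab1a. The part of GC content in these shares was not tested. For Rab11a the shares were 51.2% and 44.6% against 44.2% and 44.9%, and for Rab2a 83.4% and 88.8% against 80.4% and 84.1%, and both pairs overlapped between groups. Of the other pairs computed, Rab27 and Rab4 did not overlap, and Rab7 and Rab5 did. Rab27a held 99.4% and 99% against 100% and 99.9%, and Rab4a, on few counts, 3.57% and 5% against 5.93% and 5.26%. A lack of overlap is common with 2 libraries per group. In CPM it was seen in 26.5% (higher) and 24.9% (lower) of all genes tested.

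**Figure D4:**
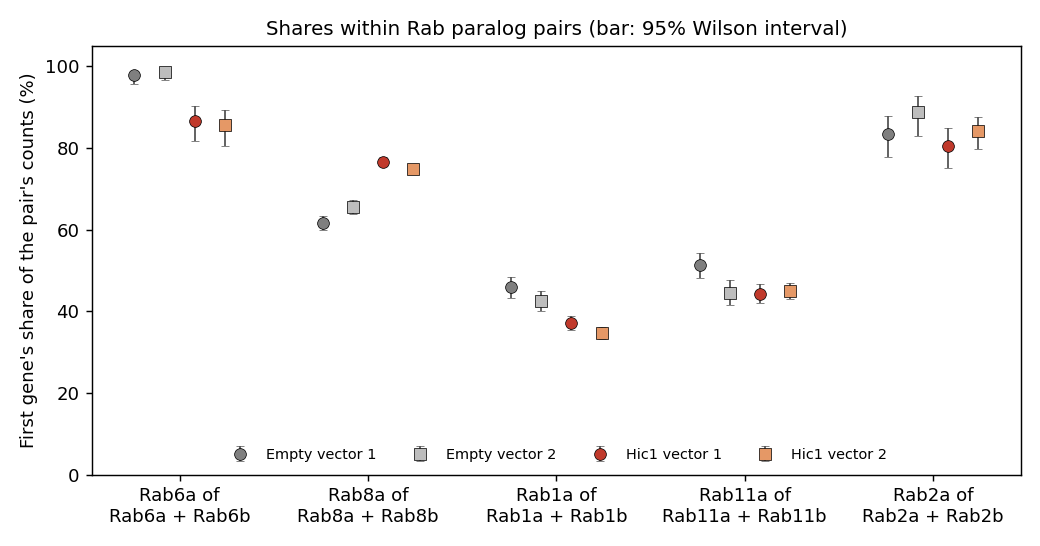
Share of each paralog pair's counts held by the first gene, in percent, per library with 95% Wilson intervals. Rab6a drops from 97.8% and 98.5% to 86.6% and 85.5%, Rab8a's share is higher and Rab1a's lower in both Hic1 vector libraries, and the Rab11 and Rab2 pairs overlap between groups.

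Levels between genes can be compared only per length, so CPM was divided by the kilobases of annotated exon. On that scale Rab8a, Rab1b and Rab7 were highest, with means over the 4 libraries of 117.6, 109 and 104.6 CPM per kb. The ranges of these 3 over libraries overlapped. Rab8a was above Rab1b in each of the 4 libraries, by as little as 135.2 against 134.9 in Hic1 vector replicate 2. The place of Rab7 changed between libraries, so the full order is not settled, and Rab19 followed at 58.7. Rab27a ranked at 9 of 47, with 37.1 CPM per kb. Rab6a stood at 20.5 and 22.5 CPM per kb with the empty vector and at 7.82 and 6.33 with the Hic1 vector. Exocyst subunits lay between 3.37 for Exoc5 and 20.7 for Exoc6, although the long annotated exons of Exoc5 (17988 bases) make its value low if they are not all transcribed here.

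The 20 members left untested were all Rab genes, with at most 13 counts in any library. They included paralogs of abundant genes, such as Rab4a with 2 and 2 counts against 7 and 6, and Rab7b with 0 and 8 against 2 and 2. They also included Rab25, Rab17 and Rab3b, which are known from epithelial or secretory cells, and Rab42 had no count in any library.

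The wider pathway was examined with lists of regulators and partners, of which 115 genes were tested, 1 rose, 1 fell and 113 did not pass. Over all 11676 genes tested, 213 were called (1.82%), 0.719% higher and 1.10% lower, so the pathway count lies near the background. Rala, a Ras-like GTPase that binds Exoc2 and Exoc8, was at 62.9 and 67 CPM with the empty vector and 33.6 and 31 CPM with the Hic1 vector. It fell 2.00-fold (log2 fold change -0.999 ± 0.196 SE, adjusted p = 0.0331 by edgeR's quasi-likelihood test). It was called in 13 of 17 alternatives, but not without empty vector replicate 1 (adjusted p = 0.176), empty vector replicate 2 (0.0685) or Hic1 vector replicate 2 (0.0906), nor after GC correction (0.0599). Its paralog Ralb was at 10.4 and 5.50 CPM against 2.53 and 0.912 CPM and did not pass (log2 fold change -2.04 ± 0.577, adjusted p = 0.0911). Without Hic1 vector replicate 1 it did (adjusted p = 0.0356). Of the 8 tested exocyst partners 7 had a log2 fold change below 0, where 5730 of all 11676 genes tested did. The median over the 8 was -0.68, against 0.01 over all genes. Only Rala passed, and among those below 0 the CPM of Rhoq, Exoc6b, Ralgps1 and Ralgps2 overlapped between groups.

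Sytl1, an effector that ties Rab27a to the plasma membrane, rose 2.08-fold. It was at 29.6 and 26.5 CPM against 69.1 and 48.2 CPM (log2 fold change 1.05 ± 0.235 SE, adjusted p = 0.0475 by edgeR's quasi-likelihood test). The call was close to the threshold and was made in 8 of 17 alternatives. In edgeR's quasi-likelihood test it was lost with DESeq2 size factors (adjusted p = 0.0525), without robust estimation (0.0595) and after GC correction (0.131). Among the other fits that lost it were limma voom (adjusted p = 0.069) and omissions of single libraries. Over the single omissions its log2 fold change ran from 0.78 to 1.29. Of 29 effectors tested 28 did not pass. Rab11fip4, an effector of Rab11, had the next lowest p in that list, at 118 and 103.4 CPM against 72.6 and 78.5 CPM.

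None of 8 genes of Rab prenylation and delivery passed. Chml, a Rab escort protein, was at 5.83 and 2.25 CPM against 0.422 and 0.456 CPM (log2 fold change -2.50 ± 0.659), and Rabac1, a Rab acceptor protein of the Golgi, was at 84.5 and 98.7 CPM against 114.2 and 131.3 CPM. None of 33 exchange factors passed either. Mon1a, part of the exchange factor of Rab7, was at 21.6 and 22 CPM against 41 and 43.2 CPM (adjusted p = 0.06 by edgeR's quasi-likelihood test). DESeq2 called Mon1a (adjusted p = 0.0343), as did edgeR's test with the replicate number as a block (0.0262), which also called Dennd4a among the exchange factors (0.0174). Gapvd1, an exchange factor of Rab5, had a log2 fold change of -0.50 ± 0.149. Among 26 GTPase-activating proteins 0 passed, and the lowest p belonged to Tbc1d17 (0.71 ± 0.212) and Usp6nl (-1.68 ± 0.537). Among 11 fusion genes of granules and vesicles 0 passed, with Stxbp2, the partner of syntaxin 11, at 129.1 and 138.9 CPM against 200.8 and 168.6 CPM and Vamp8 at 97.8 and 114.2 CPM against 125.3 and 161.6 CPM.

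Base composition of the transcripts moved with the differences, and its part in them was not tested beyond the correction given here. Over the 47 tested members the log2 fold change and the GC content of the longest transcript had a Spearman correlation of 0.50, against 0.30 over 11667 genes tested, where the points share libraries and depth. Members with a log2 fold change above 0 had a median GC content of 51.2% and those below 0 of 44.5%. Exoc5 (38.1%) and Rab28 (36.8%) had the lowest GC content of the tested members, and Rab6a had 44.6%. With each library corrected for its trend over GC content, Exoc5 was at -1.41 and Rab6a at -1.47 on the log2 scale, and both were called (adjusted p = 0.0112 each by edgeR's quasi-likelihood test). Rab1b moved to 0.20, Exoc7 to 0.35 and Rab8b to -0.21, and the exocyst median became 0.04. Rab28 moved to -1.10 (adjusted p = 0.145 by the same test). Rab18 moved the other way, from 0.54 to 0.73, and did not pass (adjusted p = 0.0562 by the same test).

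**Figure D5:**
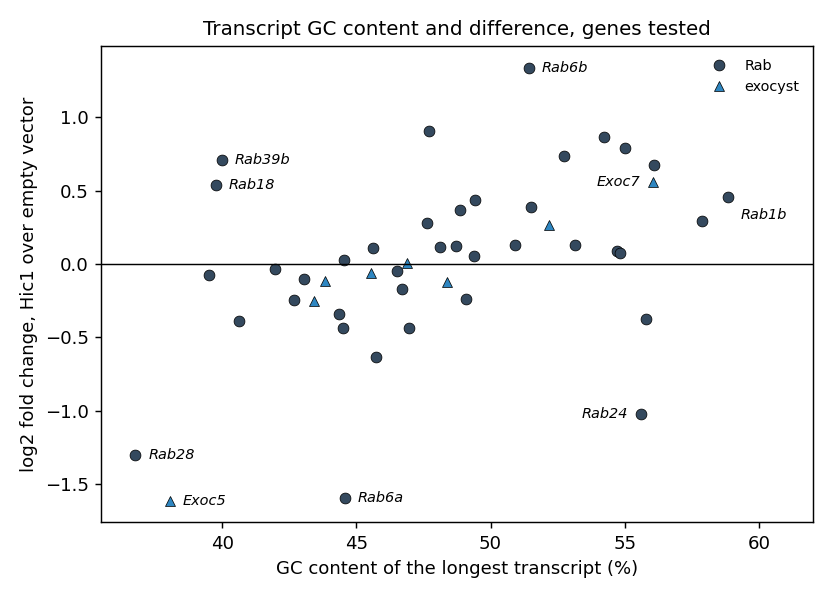
GC content of the longest transcript (x axis, percent) against log2 fold change (y axis) for the 47 tested genes, circles for Rab and triangles for exocyst genes. Higher GC content goes with higher values (Spearman 0.50), and Exoc5, Rab6a, Rab28 and Rab24 lie well below 0.

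Of the 67 members, 22 overlap exons of another gene and 16 share a stretch of at least 200 bases at 95% identity with one. Rab11b shares 654 bases at 99.85% identity with Rab11b-ps2, which had 15 and 12 counts against 34 and 42. Of Rab2b, 2469 of 4163 exon bases overlap Gm43766 (at most 5 counts) and 195 overlap Tox4 (433 to 993 counts), both on the opposite strand. The shares of the Rab11 and Rab2 pairs carry this limit too. Of Exoc5, 528 of 17988 exon bases overlap Ap5m1 on the opposite strand. Ap5m1 was at 80.8 and 85.7 CPM against 76.7 and 67.5 CPM. Of Rab6a, 708 of 3728 exon bases overlap Mrpl48, also on the opposite strand, at 19.7 and 12.5 CPM against 27 and 26.2 CPM. Neither neighbour passed the test, and without strand information reads in the overlap cannot be assigned to one gene. Beyond Mrpl48, Rab6a had a stretch of at least 200 bases at 95% identity only in Gm13082, which had no counts. Rab33b shares such a stretch with 31 other genes, so its value is uncertain. In sorted bulk cells, a lower level cannot be told apart as fewer cells with the transcript or less RNA per cell.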

How the data were processed

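The authors deposited raw read counts per gene for 4 libraries, whole numbers without scaling, and these were used. A second deposited table of normalized values was not used. The submitters' processing notes name the build mm10 and the tools STAR 2.5.2b, Trimmomatic 0.38, DESeq2 1.3.2 and featureCounts 1.5.3, without their roles. The sources used here give no annotation release and no strand setting. Per the labels' protocols, 1000 resorted cells were lysed, and libraries had 12 cycles of PCR.

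Low genes were removed in edgeR 4.0.16 with filterByExpr (at least 10 counts, total of 15). The robust quasi-likelihood test used TMM scaling, the group as its only term and a prior count of 2 (R 4.3.3). SE is the log2 fold change over the square root of F. CPM values use TMM-scaled library sizes. Benjamini-Hochberg adjustment ran over 11676 genes, called at 0.05. Gene position, exon length and GC content came from GENCODE M21, where 98.1% of identifiers matched with version, 66 of 67 members included. Near-identical stretches were found with blastn. Alternatives used limma 3.58.1 and DESeq2 1.42.0. On simulated data with the same depths, over 11265 genes, the test recovered 38 of 89 genes with a 2-fold and 85 of 105 with a 4-fold change, made 12 false calls, and made 6 calls when no gene changed. Those counts were drawn independently, with dispersions estimated from these data and with no sex difference or GC trend. The simulation therefore cannot give the rate of false calls in the real libraries.

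Values in every library are given for the exocyst, called members, the 12 members of lowest p, the 3 Rabs highest per kb and Rab27a, and in each pathway list for called genes and the 2 of lowest p, or their log2 fold change. Rab6b, Rab1a, Rab24, Rab9, Rab3a, Rab26, Rab32, Rab2b, Rab11b, Dennd4a, Tbc1d2, Rhoq, Exoc6b, Ralgps1, Ralgps2 and the untested genes were named after their values were seen. Members and lists were chosen with earlier results of these data known. A marker gene of the B cell list is not reported here.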

Additional observations from a re-analysis of the deposited data

How the results depend on the processing

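Of 17 alternatives, Exoc5 was called in 16 and Rab6a in 17, both lower in every one. The count of members called was 7 with no filter beyond a total above 0 (which added Rab8a, Rab18, Rab1b, Rab37 and Rab28), 5 with the replicate number as a block and 4 with GC correction and the block, and 1 to 3 over the single omissions, against 2. It was 3, with Rab28 added, with library sizes alone and with DESeq2. The numbers tested differ between these fits. With no filter, 66 members, 144 pathway genes and 31962 genes in all were tested. DESeq2 gave an adjusted p to 35 members, 94 pathway genes and 8280 genes in all. With the block, 47 members, 115 pathway genes and 11676 genes in all were tested. It called 10.6% of the members tested and 6.80% of all genes tested. Without empty vector replicate 1 only Rab6a was called, and without Hic1 vector replicate 1 or 2 Rab28 or Rab37 was called in addition. Counts over all genes were 321 with library sizes alone, 819 with no filter, 420 with DESeq2, 140 without robust estimation, 794 with the replicate block, 111 after thinning to the smallest library, 102 with GC correction, 549 with GC correction and the block and 8 to 318 over the single omissions, against 213. Pathway genes called numbered 9 with no filter, 7 with the block, with or without GC correction, 0 with GC correction, 1 with DESeq2 size factors in edgeR, limma voom, no robust estimation, thinning or omission of ribosomal RNA, X and Y genes, and 0 to 4 over the single omissions. Where a group was left with 1 library, that library was assumed to vary like the other group. The exocyst median was -0.10 with DESeq2 size factors, -0.16 with library sizes alone, -0.0249 with no filter, -0.11 with the 5 CPM filter, -0.10 with DESeq2, 0.0361 with GC correction, 0.0377 with GC correction and the block, -0.11 without ribosomal RNA, X and Y genes and -0.0987 to -0.0422 over the single omissions. Exoc3, near 0, was below 0 with DESeq2 size factors and with DESeq2 (-0.0026 each), library sizes alone (-0.0711), the 5 CPM filter (-0.0171), limma voom (-0.0031), without ribosomal RNA, X and Y genes (-0.0146), without empty vector replicate 1 (-0.0010) and without Hic1 vector replicate 1 (-0.1014), the single omissions running from there to 0.118. Exoc2 was above 0 with no filter (0.0048), GC correction (0.0496), GC correction and the block (0.0524) and without empty vector replicate 2 (0.0351; single omissions from -0.1565), and Exoc1 with GC correction (0.0227) and with GC correction and the block (0.0231). The cause of these shifts was not tested.

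The labels do not say what a replicate number shares. Differences between replicates 1 and 2 correlated across the groups at 0.24 over all genes tested and at 0.008 over the 47 members, and in both groups replicate 1 had Xist RNA and replicate 2 Y-linked RNA, so the block also holds sex. With the block, Rab28, Rab8a and Rab1b passed besides Exoc5 and Rab6a, and of the pathway genes Mon1a, Dennd4a, Ralb, Tbc1d17 and Tbc1d2 passed besides Rala and Sytl1. The 20 Rab genes removed by the filter had at most 13 counts in any library. Low expression was not told apart from limited depth. With no filter beyond a total above 0, 66 members were tested and none of these 20 genes was called. Differences in them may have gone undetected.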
